A study of Mus musculus with 6 samples.

Results

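The GIMAP family is examined here in mouse regulatory T cells (Tregs), the CD4 T cells that hold back immune responses and depend on the transcription factor Foxp3. Its members were taken from the deposited gene table by symbol: Gimap1, Gimap3, Gimap4, Gimap5, Gimap6, Gimap7, Gimap8 and Gimap9, which are 8 of 55840 genes. The study compared Tregs of 2 genotypes from spleen and lymph nodes. One is labelled WT and the other Exon2KO, which the series title writes as Foxp3 with a delta 2 mark. Each genotype has 3 libraries, which the titles call biological replicates, and no other allele or treatment is named. Strain, age, how the cells were sorted, and which library came from which organ are not given in the sources used here. Table columns carry the genotype and a number (2, 6 or 20), so libraries are named by both, such as WT 20.

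GIMAP proteins (GTPases of immunity-associated proteins) bind guanine nucleotides through a domain shared by the family, and several are anchored in internal membranes of the cell. They are best known for keeping lymphocytes alive: animals that lack functional Gimap5 lose T cells, and loss of Gimap1 removes mature T and B cells. Their genes lie close together on one chromosome, and the family is used mainly in cells of the blood and immune system.

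Total counts ran from 17998216 to 21003496 per library, and levels are given as CPM, counts relative to the scaled size of the library; a floor of 3 counts was at most 0.167 CPM and covers counting error only. T cell markers (7 genes, among them Cd3e and Cd4) summed to between 2843 and 3318 CPM. Foxp3, the edited gene, had 712 ± 96.5 CPM in WT and 812 ± 121 CPM in Exon2KO (SD, n = 3 each; adjusted p = 0.693), and gene counts cannot show whether its exon 2 was read. The 8 Treg markers, Foxp3 included, summed to 3949 to 4335 CPM in WT and 2873 to 3403 CPM in Exon2KO, without overlap. Apart from Foxp3 the other 7 had lower means in Exon2KO; 6 of the 8 were called lower by edgeR (1.58% of all tested genes were called lower) and the list median log2 fold change was -0.67. With the column number as a block 7 were called lower (5.79% of all tested genes), Tnfrsf18 being added (adjusted p = 0.0585 without and 0.000209 with the block). Markers of B cells (8 genes) summed to 34.3 to 35.4 CPM in WT and 27.6 to 30.3 CPM in Exon2KO. Most of that sum is Cd79b (21.6 ± 1.23 and 15.2 ± 1.56 CPM, SD, n = 3 each; adjusted p = 0.0828 by edgeR, 0.00501 with the column number as a block), while 5 of the 8 had a positive log2 fold change and the list median was 0.06. Marker sums of CD8 T and NK cells (8 genes) were 28.2 to 30.7 CPM in WT and 30.5, 71.4 and 29.1 CPM in Exon2KO 2, 6 and 20. Exon2KO 6 alone stood apart, with Gzmk at 21.8 CPM, Eomes at 22.5 CPM and Prf1 at 15.2 CPM. These 3 genes were picked after their values were seen; the other 5 of the list, Cd8a and Cd8b1 among them, summed to 12.0 CPM in Exon2KO 6 and to 14.4 to 17.3 CPM in the other libraries. Without Exon2KO 6, 0 of 8 Gimap genes were called, where 1.61% of the 15427 genes tested in that fit were called, and their median log2 fold change was -0.04. For myeloid cells (10 genes) they were 34.8 to 81.1 and 30.1 to 66.3 CPM. Erythroid markers (7 genes) summed to 5.87 to 17.6 and 3.49 to 14.2 CPM. The 8 endothelial and stromal markers summed to 165 to 190 and 188 to 225 CPM, nearly all of it Pecam1, which T cells also express; 2 of the 8 had no count in any library. With the block Pecam1 was called higher (adjusted p = 0.0164, against 0.317 without) and the myeloid gene Lyz2 lower (0.0413, against 0.865). The part of these cells, and of the lower Treg markers, in the Gimap values was not tested, and in bulk RNA fewer cells of a type and less RNA per cell cannot be told apart.

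All 8 genes lie within 123618 bases of chromosome 6, from 48647234 to 48770851 (GRCm38, positions of the deposited table). In order along the chromosome they are Gimap8, Gimap9, Gimap4, Gimap6, Gimap7, Gimap1, Gimap5 and Gimap3. Gimap6 and Gimap3 are on the minus strand and the others on the plus strand. Every member had a start sequence in RefSeq (GRCm38.p6), 9 in all because Gimap8 has 2. Of these, 4 are printed, each 250 bases before to 50 bases after the start of the gene: Gimap3 is the most abundant member, Gimap5 and Gimap6 are the pair whose genotypes did not overlap, and Gimap9 varied most between column numbers. Capitals mark matches to the motifs described after them.
Gimap3, chr6:48770802-48771101, minus strand: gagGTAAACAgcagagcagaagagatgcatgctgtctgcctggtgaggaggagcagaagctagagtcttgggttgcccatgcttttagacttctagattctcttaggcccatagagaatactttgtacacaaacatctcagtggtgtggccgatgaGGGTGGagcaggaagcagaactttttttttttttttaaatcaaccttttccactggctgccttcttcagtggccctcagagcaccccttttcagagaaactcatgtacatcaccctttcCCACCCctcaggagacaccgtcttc
Gimap5, chr6:48745947-48746246, plus strand: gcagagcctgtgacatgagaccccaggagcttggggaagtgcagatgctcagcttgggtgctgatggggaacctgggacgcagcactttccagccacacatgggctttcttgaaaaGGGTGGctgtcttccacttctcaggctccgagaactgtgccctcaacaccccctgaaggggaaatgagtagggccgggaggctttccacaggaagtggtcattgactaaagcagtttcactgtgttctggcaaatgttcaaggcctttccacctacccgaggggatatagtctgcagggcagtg
Gimap6, chr6:48708195-48708494, minus strand: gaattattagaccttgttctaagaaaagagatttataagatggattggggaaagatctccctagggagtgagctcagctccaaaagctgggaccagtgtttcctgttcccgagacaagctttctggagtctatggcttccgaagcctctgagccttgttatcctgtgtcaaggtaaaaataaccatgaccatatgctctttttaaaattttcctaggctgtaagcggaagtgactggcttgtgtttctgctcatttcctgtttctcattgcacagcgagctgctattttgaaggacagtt
Gimap9, chr6:48675885-48676184, plus strand: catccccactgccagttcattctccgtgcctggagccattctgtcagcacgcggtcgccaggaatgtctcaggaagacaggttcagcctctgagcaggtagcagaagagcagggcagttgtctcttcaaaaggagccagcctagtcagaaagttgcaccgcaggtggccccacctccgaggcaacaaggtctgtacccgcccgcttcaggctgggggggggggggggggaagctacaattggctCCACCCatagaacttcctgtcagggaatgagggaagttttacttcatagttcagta

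The 9 start sequences were searched on both strands for 5 short motifs. The forkhead motif GTAAACA, the letters that FOX proteins such as Foxp3 can bind, occurred in Gimap3 alone, beginning 247 bases before the start; 3.65% of the 32851 RefSeq start sequences of this length hold it. CCACCC, a KLF motif, occurred in 5 of the 9 (Gimap3, Gimap4, Gimap5, the second of Gimap8, and Gimap9), against 31.5% of all. The TCF and LEF motif CTTTGAA was in Gimap7, 43 bases after the start, against 5.14% of all. The RUNX motif TGTGGTT (5.27% of all) and the ETS motif CCGGAAG (8.86% of all) were in none of the 9. No 2 matches overlapped. The sequences had 43.3% to 57.3% GC and 2 to 8 CpG pairs, where the medians over all start sequences were 52.7% and 7. A match describes letters and is not evidence of binding. Each motif was searched as a single exact string, so the lack of a match does not mean the lack of a binding site.

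Levels of different genes were compared per length, as CPM per kilobase of the gene length in the table. The order of the 8 genes was the same in all 6 libraries. Gimap3, whose protein sits in membranes of mitochondria and the endoplasmic reticulum in mice, led with 476 ± 76.8 CPM per kilobase in WT and 479 ± 58.7 in Exon2KO (SD, n = 3 each). By this level it ranked from 71 to 97 among the 14919 genes that passed a filter on low counts. Gimap4, linked to T cell death, followed with a level of 304 ± 22.8 in WT and 343 ± 25.2 in Exon2KO. Gimap6, which takes part in autophagy by binding an ATG8 family protein, had a level of 160 ± 5.49 in WT and 181 ± 9.14 in Exon2KO. The level of Gimap8, which encodes the longest family protein with several GTP-binding domains, was 123 ± 13.9 and 131 ± 15.4 CPM per kilobase.
Gimap1 had a level of 90.9 ± 12.2 and 91.1 ± 6.55 CPM per kilobase in the 2 genotypes. Gimap9 (67.6 ± 14.5 and 72.6 ± 10.8 CPM per kilobase) and Gimap7 (44.2 ± 7.62 and 41.6 ± 4.80) were lower. Gimap5, the member best known for T cell survival, was last with 23.3 ± 0.746 and 21.3 ± 1.11 CPM per kilobase. Neighbours in this order had ranges over the 6 libraries that did not overlap, except Gimap1 (78.9 to 103 CPM per kilobase) and Gimap9 (56.0 to 84.5 CPM per kilobase). Gimap3 made up 33.3% to 39.0% of the summed level per length of the family in a library and Gimap5 made up 1.51% to 2.00%.

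Some of these counts may hold reads of other genes, or may lack reads left out because they also fit another gene. How such reads were handled was not tested. Levels per length divide by the whole gene length in either case, and the order of the members was not corrected for this. The antisense gene Gimap1os overlaps Gimap1, and 36.0% of the exonic bases of Gimap1 lie opposite its exons; the strand setting of the counting is not given in the sources used here. Gimap1os had 1242 counts over the 6 libraries against 31616 for Gimap1. A predicted gene model, Gm28053 (348 counts), runs across Gimap7, Gimap1 and Gimap5 on their strand and shares 3.48%, 6.44% and 3.69% of their exonic bases. Gimap3 and Gimap5 share sequence: 7.52% of the 50-base stretches in Gimap3 transcripts and 4.53% of those in Gimap5 transcripts also occur in the other. No 50-base stretch of Gimap4, Gimap8 or Gimap9 occurred in another gene.

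The question put to the genotypes was whether the Exon2KO form of Foxp3 goes with other levels of these genes. No Gimap gene passed the test: 0 of 8 members were called by edgeR at an adjusted p under 0.05, where 2.33% of all 14919 tested genes were called. DESeq2 (4.75% of the genes it gave an adjusted p), limma-voom (1.94% of all tested genes) and edgeR with the column number as a replicate block (9.72% of all tested genes) also called 0 of 8. At an unadjusted p under 0.05 edgeR gave 1 member, Gimap6 (12.1% of all tested genes), as did DESeq2 (11.5% of the genes it gave a p) and limma-voom (12.6% of all tested genes) with 1 member each, and the block gave 2, Gimap4 and Gimap6 (21.5% of all tested genes). All 8 had passed the count filter, and the median log2 fold change of Exon2KO over WT was 0.05, beside 0.0084 for all tested genes. Summed over the family, the level was 3386 ± 344 CPM in WT and 3566 ± 268 CPM in Exon2KO (SD, n = 3 each), with single libraries at 3509 (WT 2), 3652 (WT 6), 2998 (WT 20), 3717 (Exon2KO 2), 3726 (Exon2KO 6) and 3257 CPM (Exon2KO 20), so the groups overlapped. Within each column number the sum was higher in Exon2KO, in 3 of 3 pairs. By gene, 4 members were higher in Exon2KO in all 3 pairs (Gimap4, Gimap6, Gimap8 and Gimap9), 1 was lower in all 3 (Gimap5), and the other 3 differed in direction between pairs. Of all tested genes 42.4% kept 1 direction in all 3 pairs, 21.4% higher and 20.9% lower in Exon2KO.

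**Figure D1:**
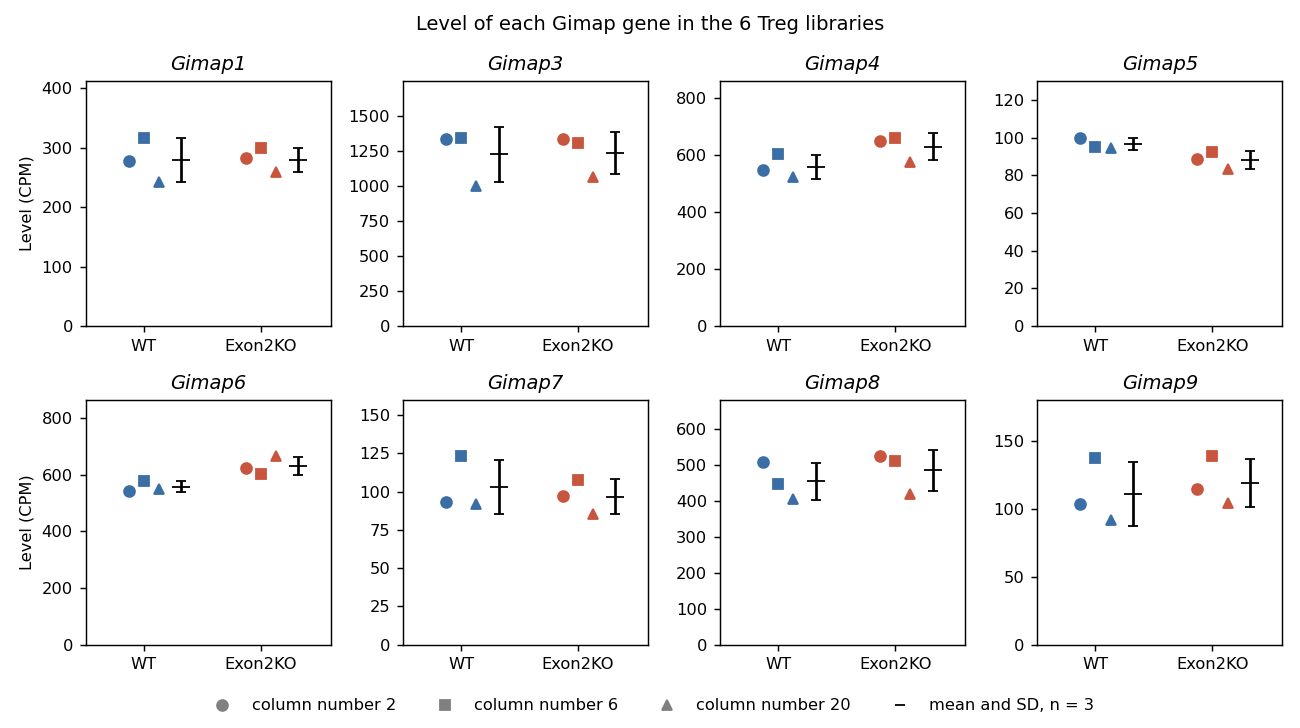
Level of each Gimap gene (y axis, CPM, from 0) in the 3 WT and 3 Exon2KO libraries (x axis); symbols show the column number and the bar the mean and SD (n = 3). The genotypes overlap for 6 genes, while Gimap6 is higher and Gimap5 lower in all 3 Exon2KO libraries.

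Gimap6 and Gimap5 were the members whose genotypes did not overlap, in opposite directions; 17.7% of all tested genes had no overlap, 8.35% with Exon2KO higher and 9.32% with it lower. Gimap6 had 544 (WT 2), 580 (WT 6) and 551 CPM (WT 20), and 623 (Exon2KO 2), 604 (Exon2KO 6) and 667 CPM (Exon2KO 20). All 3 Exon2KO libraries lay above all WT libraries. The log2 fold change of Gimap6 was 0.18 (SE 0.08, 95% interval 0.0087 to 0.35; adjusted p = 0.374 by edgeR). Within the pairs of equal column number it was 0.20 (number 2), 0.06 (number 6) and 0.28 (number 20), higher in Exon2KO in 3 of 3. Gimap5 had 100.1 (WT 2), 95.3 (WT 6) and 94.4 CPM (WT 20), against 88.6, 92.6 and 83.4 CPM in Exon2KO 2, 6 and 20. Its Exon2KO values were all lower than its WT values, with a log2 fold change of -0.13 (SE 0.07, 95% interval -0.30 to 0.035, adjusted p = 0.58). Neither difference is distinguished from replicate spread once all tested genes are accounted for.

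Gimap4 had 548, 604 and 522 CPM in WT 2, 6 and 20, and 651, 662 and 577 CPM in Exon2KO 2, 6 and 20. It was higher in Exon2KO in 3 of 3 pairs, but Exon2KO 20 lay below WT 6. Its log2 fold change of 0.18 (SE 0.09, 95% interval -0.02 to 0.37) did not pass (adjusted p = 0.504). With the replicate block the interval of Gimap4 ran from 0.04 to 0.31 and that of Gimap6 from 0.04 to 0.32, with adjusted p of 0.107 and 0.119.

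The other 5 members overlapped between genotypes. Gimap3 had 1334, 1346 and 997 CPM in WT 2, 6 and 20 against 1334, 1310 and 1061 CPM in Exon2KO 2, 6 and 20; the log2 fold change was 0.01 (SE 0.14). Gimap1, needed by mature lymphocytes, had 278, 317 and 242 against 282, 299 and 259 CPM, a log2 fold change of 0.0039 (SE 0.11). In both genes the genotypes were closer to each other than the libraries of 1 genotype were. Gimap8 had 509, 449 and 407 against 526, 512 and 421 CPM (log2 fold change 0.09, SE 0.11). Gimap9 had 103, 138 and 92.0 against 115, 139 and 104 CPM (0.10, SE 0.16). Gimap7 had 92.9, 123 and 92.2 against 97.3, 108 and 85.4 CPM (-0.09, SE 0.13). The adjusted p of these 5 genes ran from 0.854 to 0.996.

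These 95% intervals give, gene by gene, a range for the genotype difference in the fit without a block. They do not cover the choice of libraries. Without WT 6 the log2 fold change of Gimap9 was 0.29 (SE 0.13), against 0.10 with all libraries. Over the 8 members the lowest 95% bound was 0.766-fold (Gimap7) and the highest 1.40-fold (Gimap9). The median SE of the members was 0.11 on the log2 scale, against 0.16 over all tested genes. In the authors' deposited table Gimap6 has a log2 fold change of 0.18 with p = 0.0366 and an adjusted p of 0.397, and no member has a lower adjusted p in the authors' deposited table.

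**Figure D2:**
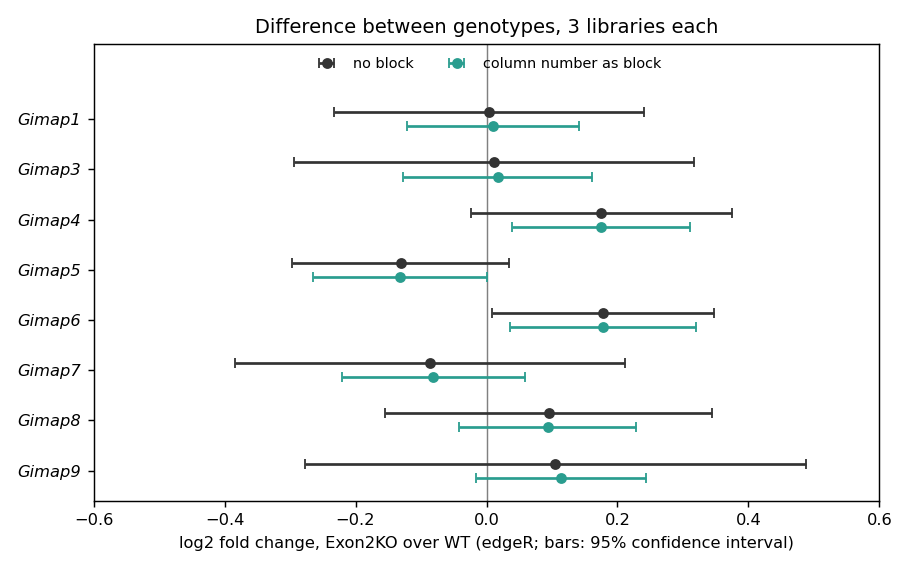
Log2 fold change of Exon2KO over WT (x axis) for each Gimap gene (y axis), with 95% confidence intervals from edgeR without a block (dark) and with the column number as a block (green). Values lie between -0.13 and 0.18; without the block only the interval of Gimap6 leaves out 0, and with it those of Gimap4 and Gimap6.

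Between column numbers, by contrast, 5 of the 8 members differed. The number was tested as the block term of the same edgeR fit, a test chosen after the values were seen; no label says what the numbers stand for. The called members were Gimap1, Gimap3, Gimap7, Gimap8 and Gimap9, with adjusted p from 0.000983 to 0.0462, where 10.4% of all tested genes were called. Gimap4, Gimap5 and Gimap6, the 3 with the largest genotype differences, had adjusted p of 0.218, 0.663 and 0.875. The same 5 genes were lower in the libraries numbered 20 than in those numbered 2 and 6, where 11.1% of all tested genes were called, 4.80% lower and 6.31% higher. This contrast, and that of number 6 against number 2, were also chosen after the values were seen, and their adjusted p do not cover that choice. The log2 difference was -0.37 for Gimap3 (SE 0.07, adjusted p = 0.00335), -0.33 for Gimap9 (SE 0.07, adjusted p = 0.00415), -0.27 for Gimap8 (SE 0.07, adjusted p = 0.0187), -0.24 for Gimap7 (SE 0.07, adjusted p = 0.0385) and -0.23 for Gimap1 (SE 0.07, adjusted p = 0.0343). For Gimap1, Gimap3, Gimap7 and Gimap8 both libraries numbered 20 lay below the other 4, and for Gimap9 Exon2KO 20 lay above WT 2.
Gimap9 was also higher in the libraries numbered 6 than in those numbered 2, with a log2 difference of 0.35 (SE 0.07, adjusted p = 0.0399), and was the only member called there (1.07% of all tested genes, 0.503% higher and 0.563% lower).

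Some markers of other cells moved with the column number as well. The 10 myeloid markers summed to 81.1 CPM in WT 20 and 66.3 CPM in Exon2KO 20, against 30.1 to 35.8 CPM in the other libraries. S100a9, a neutrophil gene, had 21.8 and 15.6 CPM in the libraries numbered 20 and 2.10 to 3.44 CPM in the others. Lyz2, S100a8 and S100a9 carried this difference (adjusted p between column numbers 4.5e-05, 6.34e-05 and 1.32e-07 by edgeR); the other 7 of the list summed to 17.41 and 19.02 CPM in the libraries numbered 20 and to 13.99 to 18.42 CPM in the others, and the 5 of them that were tested were not called. The 7 erythroid markers summed to 5.87 and 3.49 CPM in the libraries numbered 20 and to 9.95 to 17.6 CPM in the others. Among them the globin genes Hba-a1, Hbb-bs and Hba-a2 were called between column numbers (adjusted p = 0.000121, 0.0115 and 0.0482 by edgeR). Alas2 was not (adjusted p = 0.85), and the rest of the list was not tested. T cell markers in WT 20 and Exon2KO 20 summed to 3188 and 3303 CPM, within the range of the others. The sums for B cells also lay within that of the others (34.8 and 30.3 CPM, against 27.6 to 35.4 CPM). The same held for CD8 T and NK cells (29.3 and 29.1 CPM, against 28.2 to 71.4 CPM). It held too for endothelial and stromal markers (184 and 217 CPM, against 165 to 225 CPM). The part of these cells in the Gimap differences between column numbers was not tested.

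**Figure D3:**
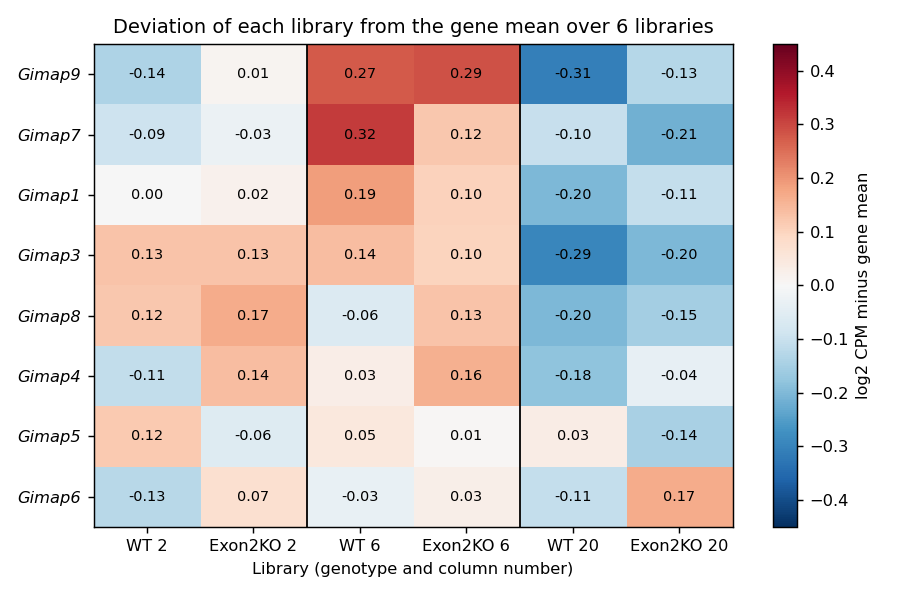
Log2 CPM of each Gimap gene (rows) minus its mean over the 6 libraries (columns, ordered by column number; colour and printed value). Gimap9, Gimap7, Gimap1, Gimap3, Gimap8 and Gimap4 are below their means in both libraries numbered 20, down to -0.31, while Gimap6 is 0.17 above its mean in Exon2KO 20.

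The genes most like the family were sought by correlation with the mean of the members' standardised log2 CPM over the 6 libraries, among 9358 protein-coding genes. The highest were Pdcd4, an inhibitor of translation (r = 0.999), Shld1, a DNA repair factor (r = 0.997), Usp10, a deubiquitinase (r = 0.996), Pip4p1, a lipid phosphatase (r = 0.995), and Stard3, a cholesterol transporter (r = 0.992). With the genotype means taken off both, they were Pdcd4, Pip4p1, Mtfr1, Ppp4c and Zfp729a, with r from 0.998 to 0.999. With 6 libraries that share 3 column numbers, and this many candidates, such values describe the ranking only. The mean also covers members that did not all vary together. Over the 6 libraries 23 of the 28 pairs of members correlated positively (median r = 0.47), and Gimap5 with Gimap6 had r = -0.95. With the genotype means taken off, 21 pairs did so (median r = 0.60). Pdcd4 had 391 ± 101 CPM in WT and 420 ± 85.8 CPM in Exon2KO (SD, n = 3 each), overlapping between genotypes.

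Other genes near the cluster were tested in the same fit. Within 500000 bases on either side, 23 further genes were tested and 1 was called (2.33% of all tested genes), Sspo, which encodes SCO-spondin (chromosome 6, 48448229 to 48501250). Sspo had 27.4 ± 7.52 CPM in the WT libraries and fell to 9.69 ± 2.21 CPM in the Exon2KO libraries (SD, n = 3 each; -1.50 in log2, SE 0.24, adjusted p = 0.0162 by edgeR). The median over the 23 genes was -0.04. With the replicate block 4 were called, 3 lower and 1 higher (9.72% of all tested genes were called, 5.79% lower and 3.93% higher). Between the first and the last Gimap gene none of the 4 further tested genes, Gm28053, Gimap1os, Gm44226 and 4833403J16Rik, was called.

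**Figure D4:**
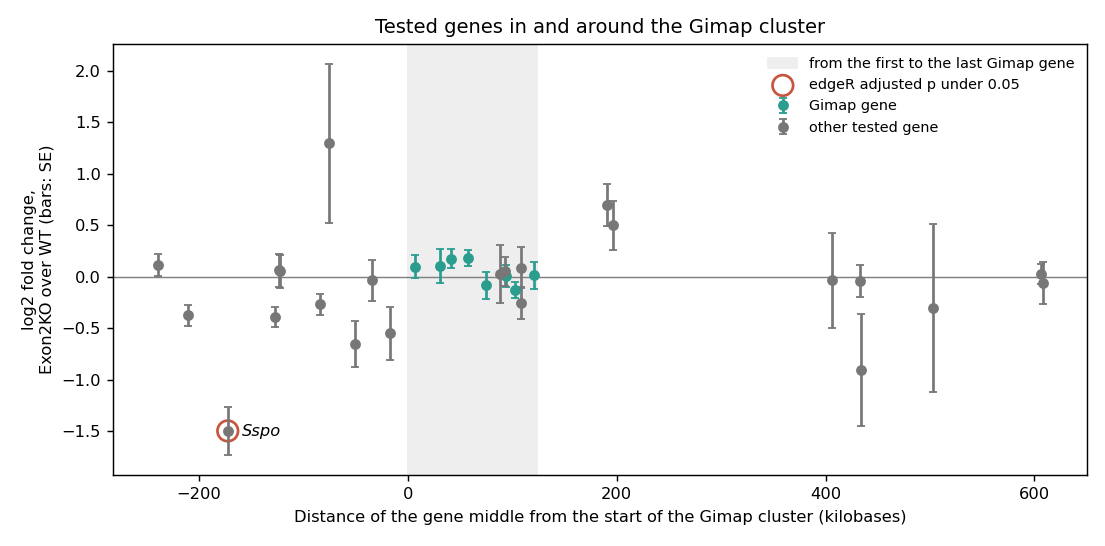
Log2 fold change of Exon2KO over WT (y axis, bars are the SE) of each tested gene in and around the cluster, by distance of its middle from the start of the cluster in kilobases (x axis). Gimap genes (green) lie between -0.13 and 0.18, and Sspo, at -1.50, is the called gene (red circle).

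Genes tied to the same biology were counted beside the family, without a set test. Of 16 genes of T cell quiescence and the naive state, 4 were called higher in Exon2KO by edgeR (0.757% of all tested genes were called higher) and the median log2 fold change was 0.28. With the replicate block 9 were called higher (3.93% of all tested genes) and 1, Il7r, lower (5.79% of all tested genes). The 4 are Tcf7, a factor of naive and memory T cells, which rose from 643 ± 37.2 to 1134 ± 46.3 CPM (SD, n = 3 each; log2 fold change 0.82, SE 0.08, adjusted p = 0.00151), Satb1, a chromatin organiser (0.72, adjusted p = 0.00415), S1pr1, the receptor for exit from lymph nodes (0.61, adjusted p = 0.0159), and Klf2, which drives S1pr1 (0.54, adjusted p = 0.0175). Over the fits that left out single libraries, 2 to 4 were called, 2 without WT 2 or without Exon2KO 2. Il7r had 356, 473 and 141 CPM in WT 2, 6 and 20, and 280, 400 and 84.8 CPM in Exon2KO 2, 6 and 20. Its log2 fold change by edgeR was -0.34 without the block (adjusted p = 0.941) and -0.43 with it (adjusted p = 0.00709).

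BCL2 family genes set the balance between survival and death in T cells. Of 18, 15 were tested, 2 were called lower (1.58% of all tested genes were called lower), and the median was -0.09. Bcl2l1, which encodes the survival protein BCL-XL, fell from 52.2 ± 5.15 to 33.1 ± 1.20 CPM (SD, n = 3 each; log2 fold change -0.65, SE 0.10, adjusted p = 0.00915). Bid, which promotes death, fell by 0.61 on the log2 scale (SE 0.10, adjusted p = 0.0162). With the block 4 were called lower and 2 higher (5.79% and 3.93% of all tested genes). No gene of this list was called lower without Exon2KO 2, and 1 was without WT 2, without WT 6 or without Exon2KO 6. Bcl2 itself had 325, 307 and 201 CPM in WT 2, 6 and 20 and 456, 418 and 367 CPM in Exon2KO 2, 6 and 20; its log2 fold change of 0.58 did not pass (adjusted p = 0.213), and it was called higher with the block (0.60, adjusted p = 0.000282). The other gene called higher with the block was Bcl2l11, which encodes the death-promoting protein BIM (0.49, adjusted p = 0.0759 without the block; 0.50, adjusted p = 8.52e-05 with it).

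Among 17 genes of partners and processes reported for GIMAP proteins (ATG8 proteins and autophagy, lysosome, GSK3 and calcium uptake), 1 was called, lower (1.58% of all tested genes), and the median was 0.02. With the block 2 were called lower (5.79% of all tested genes). The lysosome gene Lamp2 was added (adjusted p = 0.212 by edgeR without the block and 0.0201 with it). Gabarapl1, an ATG8 family gene, fell from 16.7 ± 0.44 to 9.19 ± 1.06 CPM (SD, n = 3 each; log2 fold change -0.86, SE 0.14, adjusted p = 0.0153), a call lost without WT 2, without WT 6 or without Exon2KO 2. Gabarapl2, whose product binds Gimap6, had 51.0 ± 4.71 and 53.0 ± 1.89 CPM (adjusted p = 0.903), and Gsk3b, reported downstream of Gimap5, had 120 ± 18.2 and 132 ± 9.34 CPM (adjusted p = 0.755). Of 12 genes of the IRG and GBP families, interferon-induced GTPases, 2 were called lower (1.58% of all tested genes), with a median of -0.09. Gbp3 fell by 0.83 on the log2 scale (SE 0.11, adjusted p = 0.00475) and Gbp5 by 0.41 (SE 0.08, adjusted p = 0.0353). With the block 5 were called lower (5.79% of all tested genes), and 1 was called in each fit that left out a single library.

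**Figure D5:**
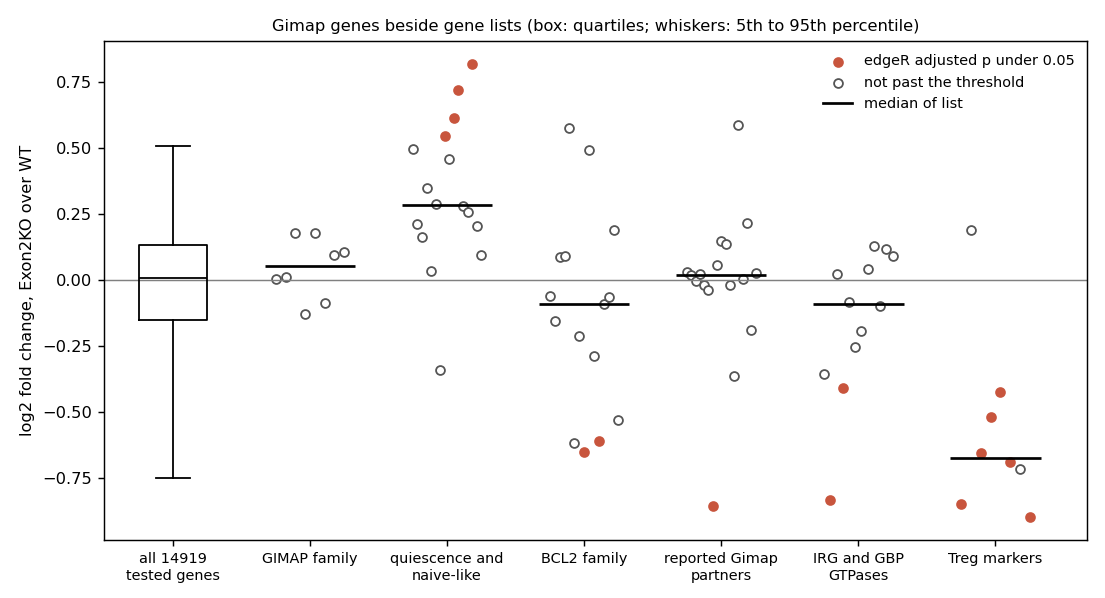
Log2 fold change of Exon2KO over WT (y axis) of the tested genes of each list (x axis; filled points have an adjusted p under 0.05, black lines are list medians) beside all 14919 tested genes (box with quartiles, whiskers from the 5th to the 95th percentile). The Gimap genes lie between -0.13 and 0.18 with none filled, while 4 quiescence genes are filled above 0 and 6 Treg markers below.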

How the data were processed

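RNA of 6 Treg libraries was sequenced. Per the file headers, the deposited table gives raw counts for each gene, which are integers and carry no normalization. The submitters' processing notes name HISAT2 2.0.5, StringTie 1.3.3b, featureCounts 1.5.0-p3, DESeq2 1.16.1 and the build mm10, without roles; annotation and strand setting are not given in the sources used here. The authors also deposited their own comparison: group means as a scaled count signal (not used), a log2 fold change and p-values. The 6 FPKM columns were not used, because columns could be matched to a genotype but not to a titled sample and only 1 measure was kept; levels between genes, planned in FPKM, are therefore CPM per kilobase.

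Counts were tested with edgeR 4.0.16 in R 4.3.3 (filterByExpr, TMM scaling, robust quasi-likelihood fit), comparing Exon2KO with WT over the 6 libraries without covariates; the filter kept 14919 genes. P-values are two-sided, adjusted by Benjamini-Hochberg over all tested genes, with calls at an adjusted p under 0.05. The SE is the absolute log2 fold change divided by the square root of the F statistic. CPM uses TMM-scaled library sizes. Same-numbered columns deviated together across genes (correlations of 0.271, 0.369 and 0.494 for numbers 2, 6 and 20), so a fit with the column number as a block is given where it changes a call or a count; the pairing comes only from the column names.

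Members, gene lists and tests were chosen with earlier results of these data known. Named are all 8 members, called neighbours, and the called genes (at most 6) of each list other than the cell marker lists. Also named are the 5 genes most like the family (mean of at least 5 CPM) by each of 2 correlations. Other names were chosen after their values were seen. Gene positions come from the deposited table; of its 55840 identifiers 55394 occur in GENCODE M21 (GRCm38), 55218 with the same position. Start sequences are from RefSeq (GRCm38.p6). Other settings were 2 count filters, RLE and upper-quartile scaling, DESeq2 1.42.0, limma-voom (limma 3.58.1), no robust estimation, the block, autosomal genes without receptor segments and other-cell markers, and leaving out libraries. The scripts were tested on simulated counts. A planned protein comparison was not run.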

Additional observations from a re-analysis of the deposited data

How the results depend on the processing

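No setting called any Gimap gene: 0 of 8 in each of the 18 alternatives, by adjusted p, against 348 called genes overall in the reported fit. Gimap4, Gimap5, Gimap6 and Gimap8 kept their direction throughout, with log2 fold changes of 0.13 to 0.24, -0.18 to -0.10, 0.13 to 0.21 and 0.02 to 0.18; their lowest adjusted p were 0.107, 0.235, 0.119 and 0.442. The family median stayed within its replicate spread and lay between -0.05 and 0.12 on leaving out 1 library. Values near 0 changed sign. Gimap1 became -0.0033 without a count filter, -0.0052 with at least 10 counts in every library, -0.011 with upper-quartile scaling, -0.036 without both libraries numbered 20 and -0.034 with the replicate block and without them. Gimap3 became -0.0046 with upper-quartile scaling, -0.020 without both libraries numbered 20, and -0.020 with the replicate block and without them. When single libraries were left out, Gimap1 ran from -0.089 to 0.11, Gimap3 from -0.12 to 0.11, Gimap7 from -0.18 to 0.067 (above 0 without WT 6) and Gimap9 from -0.028 to 0.29 (below 0 without WT 20 or without Exon2KO 6).

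The 348 called genes became 617 without a filter, 667 with DESeq2, 1450 with the replicate block, 1320 with the replicate block and no robust estimation, 900 with the replicate block without both libraries numbered 20, and 86 to 314 with 1 library left out (86 without Exon2KO 2, 131 without WT 2, 156 without WT 6, 204 without WT 20). Quiescence genes called higher (4) became 7 with DESeq2, 9 with the replicate block, 9 with the replicate block and no robust estimation, and 7 with the replicate block without both libraries numbered 20, with a range of 2 to 4 when leaving out 1 library; 1 was called lower in each of the 3 block fits. BCL2 family genes called higher became 1 without a filter, 2 with DESeq2, 2 without both libraries numbered 20, 2 in each of the 3 block fits, and 0 to 1 on leaving out 1 library. Those called lower (2) became 4 with the block, 3 when it had no robust estimation, and 0 to 2 on leaving out 1 library. Partner genes called lower (1) became 2 in the block fits with and without robust estimation, and 0 to 1 on leaving out 1 library. IRG and GBP genes called lower (2) became 5 with the block, 4 when it had no robust estimation, and 1 without both libraries numbered 20. There was 1 in each fit without a single library. Without the block there were 3 with no count filter, with at least 10 counts in every library, with upper-quartile scaling and with DESeq2. The replicate block changed no Gimap call. The common coefficient of biological variation fell from 17.3% to 8.56% when the block was added; otherwise the cause was not tested. The replicate block on the titles' own numbers could not be fitted, since the columns carry other numbers. The median log2 fold change of all tested genes was 0.0084; RLE gave 0.0095 and upper-quartile scaling gave -0.0068. With 3 libraries a genotype, differences of the size seen for Gimap4, Gimap5 and Gimap6 did not pass the test.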
